A study of Mus musculus with 24 samples.

Results

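The genes described here mark the non-blood tissue of the bone marrow: its stromal cells, its blood vessels and the matrix both lay down. They were 38 genes of the 19938 named on the array, taken by gene symbol from a list drawn up by cell type and role. Each was represented by 1 probe set. They comprise 24 stromal genes, 12 endothelial genes and the 2 chains of basement membrane collagen, Col4a1 and Col4a2. Of the 38, 36 passed the filter on low signal and were tested, and Lum and Vcan were not. The samples were 24 arrays, each a separate biological replicate per the labels, of bone marrow from mice that had all received 2 Gy of ionizing radiation. In the preleukemic groups the material was pro/pre-B cells. There were 3 such arrays of wild-type (WT) mice and 7 of mice heterozygous for the B-lineage transcription factor Pax5 (Pax5+/-). In the leukemic groups the design text names tumor-bearing marrow, on 4 WT and 10 Pax5+/- arrays, and the labels call these cells B cells as well. The labels attach 3 weeks of irradiation to every sample, leukemic ones included, and give no age, sex, strain or method of isolating the cells.

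Bone marrow stroma consists of perivascular reticular cells, bone-forming cells, adipocytes and smooth muscle cells around a network of sinusoids and arterioles. Perivascular reticular cells carry the leptin receptor and are the main source of the chemokine Cxcl12 and of Kit ligand, which hold stem cells and early B-lineage cells in the marrow. The endothelial cells of the sinusoids are recognised by adhesion and angiopoietin or VEGF receptor genes, and both cell types deposit collagens, proteoglycans and their binding proteins. B-lineage cells themselves are not known to make fibrillar collagen, although 11 of the 38 genes are also known from other blood cells: Sparc, Vwf, Pecam1, Esam, Eng, Tek, Emcn, Fn1, Vcan, Thy1 and Lpl.

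Signals are log2 values from the robust multi-array average (RMA), so that a difference of 1 is a doubling of signal. A difference is given with its standard error from limma, and a gene was called at an adjusted p under 0.05 over the 15647 genes tested. The dim level of an array is its 30th percentile, 5.18 to 5.35, and serves as a stand-in for background. The leukemic and preleukemic arrays differed beyond these genes. The summed level of B-lineage genes, given as a mean log2 signal, lay between 10.94 and 11.48 in all preleukemic and between 8.73 and 10.40 in all leukemic arrays. Of 11 such genes, 7 fell in each genotype, against 35.1% of all genes tested in Pax5+/- and 20.4% in WT mice. Array medians over all probe sets were 6.10 to 6.22 in leukemic and 6.23 to 6.30 in preleukemic arrays. WT preleukemic array 1 stood apart, with a mean of granulocyte genes of 10.42 against 6.64 and 6.73 in the other WT preleukemic arrays. Y-linked genes were high in 3 of 3 WT preleukemic and 0 of 4 WT leukemic arrays, and stage therefore cannot be told apart from sex in the WT groups. They were high in 4 of 7 preleukemic and 5 of 10 leukemic Pax5+/- arrays.

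The first question was whether leukemic marrow and preleukemic cells of the same genotype differed in these genes. In Pax5+/- mice, 31 of the 36 tested genes were higher in leukemic arrays and 1, Pecam1, was lower. Of all genes tested, 27.8% were called higher and 35.1% lower in this comparison. Stromal genes rose in 18 of 22 tested, endothelial genes in 11 of 12, and both basement membrane collagens rose. The median difference was 1.09 for stromal and 1.10 for endothelial genes, 0.33 for basement membrane collagens and -0.05 for all genes tested. In 18 of the genes that rose, every leukemic array lay above every preleukemic array, which held for 11.7% of all genes tested. In these bulk samples, more cells of a type and more RNA per cell cannot be told apart, nor can fewer cells and less RNA per cell. The stages also differ in the material named, pro/pre-B cells against tumor-bearing marrow. Stage therefore cannot be told apart from the material or its purity. Of the 36, Postn, Kitl, Lepr, Tek and Cav1 passed the filter only through leukemic arrays, so for them a difference was built into passing. With no filter, 32 of all 38 genes were called higher, against 22.1% of all named genes. The call added came from Lum or Vcan, which had not passed the filter.

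**Figure D1:**
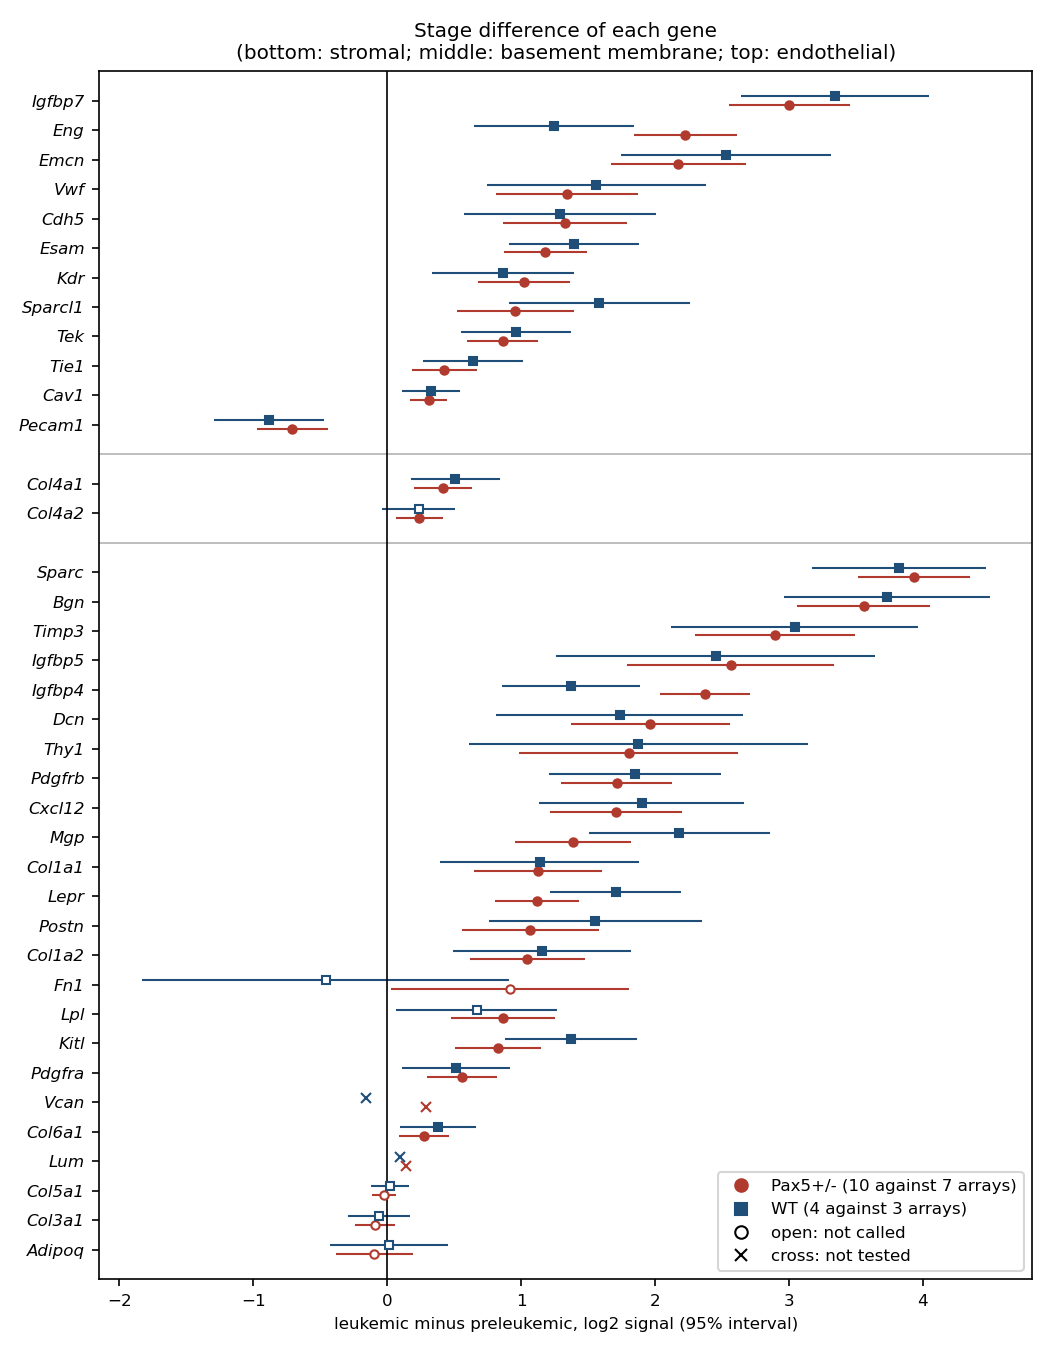
Leukemic minus preleukemic log2 signal (horizontal axis) of each gene, with 95% intervals, for Pax5+/- mice (circles, 10 against 7 arrays) and WT mice (squares, 4 against 3 arrays). Open symbols were not called and crosses not tested. Sparc, Bgn, Timp3 and Igfbp7 lie farthest to the right in both genotypes, Pecam1 lies left of 0 in both, and Col3a1, Col5a1 and Adipoq lie near 0.

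In WT mice, 29 of the 36 tested genes were higher in leukemic arrays and Pecam1 again was lower, where 18.7% of all genes tested were called higher and 20.4% lower. The 29 were also among the 31 called in Pax5+/- mice, and Lpl and Col4a2 were called in Pax5+/- mice alone. Lpl differed by 0.67 ± 0.29 (SE) in WT mice with an adjusted p of 0.0717 (limma), and Col4a2 by 0.24 ± 0.13 with an adjusted p of 0.157. The difference between the genotypes was itself 0.20 ± 0.35 for Lpl (adjusted p = 0.948) and 0.00 ± 0.16 for Col4a2 (adjusted p = 0.996). Stromal genes rose in 17 of 22, endothelial genes in 11 of 12 and basement membrane collagens in 1 of 2. The median difference was 1.37 for stromal and 1.27 for endothelial genes, against -0.05 for all genes tested. In 27 of the 36 the leukemic arrays lay wholly above the preleukemic ones, which held for 18.9% of all genes tested. The 27 include Postn, Kitl, Lepr and Tek, which passed the filter only through leukemic arrays, so for them a difference was built into passing. With no filter, 29 of 38 were called higher, against 14.2% of all named genes. Without WT preleukemic array 1, 26 genes were called higher.

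Some WT calls depended on single arrays. Without WT leukemic array 4, Col1a1 differed by 0.88 with an adjusted p of 0.0582 (limma) and Col4a1 by 0.43 with an adjusted p of 0.0515. Without WT leukemic array 2, the call was lost for Col6a1 (0.35), Pdgfra (0.44), Thy1 (1.54), Col4a1 (0.43) and Cav1 (0.22). Without WT preleukemic array 1 it was lost for Col6a1 (0.35), Pdgfra (0.42) and Cav1 (0.27). Col6a1 also lost its call without WT leukemic array 4 (0.36) or WT preleukemic array 2 (0.28). Pdgfra lost its call without WT leukemic array 1 (0.49) or 3 (0.55) or WT preleukemic array 2 (0.52), and Thy1 without WT preleukemic array 2 (1.50) or 3 (1.77). The other 24 calls in WT mice held without each array in turn, as did all 32 in Pax5+/- mice.

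The scale of the arrays mattered for the smallest differences. When each array was centred on the median of its tested genes, a setting chosen after seeing the data, the median difference of all tested genes in Pax5+/- mice moved from -0.05 to -0.25. Over all genes the split then went from 4354 higher and 5485 lower to 2827 higher and 8930 lower, and centring on all probe sets gave 5066 higher and 3502 lower. In WT mice the split was 2924 higher and 3191 lower as deposited, 2214 and 5741 centred on the tested genes, and 3379 and 2177 centred on all probe sets. On the tested-gene scale Col6a1, Col4a1, Col4a2, Tie1 and Cav1 were no longer called in Pax5+/- mice, and Col3a1 and Col5a1 were called lower, at -0.28 and -0.22. The other 26 genes called higher remained called higher. In WT mice Col6a1, Pdgfra, Col4a1 and Cav1 were no longer called on that scale. Repeated quantile normalization also lost the calls of Col6a1 (0.10, adjusted p = 0.291, limma) and Col4a2 (0.12, adjusted p = 0.183) in Pax5+/- mice and of Col6a1 (0.28, adjusted p = 0.0917) in WT mice.

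Promoter sequences are shown for the genes with the largest rise in each class in Pax5+/- mice, Sparc, Bgn, Igfbp7 and Eng, since they moved together by stage. They come from RefSeq on GRCm38.p6 and span 250 bases before to 50 after the gene's start, 5′ to 3′ on the gene's strand. Of the 38 genes, 25 were in the promoter table, 3 of them with more than 1 promoter. Capitals mark matches on either strand to GGGCGG (the GC box of Sp1 factors), TATAAA (the TATA box), AGGAAG (an Ets core) or TGANTCA (an AP-1 site).
Sparc, chr11:55420031-55420330, minus strand: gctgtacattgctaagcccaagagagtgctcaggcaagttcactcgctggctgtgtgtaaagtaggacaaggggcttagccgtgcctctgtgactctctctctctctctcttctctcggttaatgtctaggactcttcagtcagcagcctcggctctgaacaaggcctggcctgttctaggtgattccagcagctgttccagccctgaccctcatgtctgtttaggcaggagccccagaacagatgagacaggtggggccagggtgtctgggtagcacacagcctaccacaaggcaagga
Bgn, chrX:73483351-73483650, plus strand: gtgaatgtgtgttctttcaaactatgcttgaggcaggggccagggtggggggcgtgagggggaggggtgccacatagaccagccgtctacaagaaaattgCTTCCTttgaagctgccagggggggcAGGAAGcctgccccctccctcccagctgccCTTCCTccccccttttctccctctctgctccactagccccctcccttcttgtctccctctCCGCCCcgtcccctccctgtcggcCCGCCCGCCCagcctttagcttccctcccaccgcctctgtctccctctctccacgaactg
Igfbp7, chr5:77407996-77408295, minus strand: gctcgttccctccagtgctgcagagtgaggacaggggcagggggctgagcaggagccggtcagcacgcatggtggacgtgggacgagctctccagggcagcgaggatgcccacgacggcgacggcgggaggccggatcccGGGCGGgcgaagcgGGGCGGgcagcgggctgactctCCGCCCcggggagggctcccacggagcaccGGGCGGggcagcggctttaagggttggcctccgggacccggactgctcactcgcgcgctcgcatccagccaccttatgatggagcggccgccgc
Eng, chr2:32646345-32646644, plus strand: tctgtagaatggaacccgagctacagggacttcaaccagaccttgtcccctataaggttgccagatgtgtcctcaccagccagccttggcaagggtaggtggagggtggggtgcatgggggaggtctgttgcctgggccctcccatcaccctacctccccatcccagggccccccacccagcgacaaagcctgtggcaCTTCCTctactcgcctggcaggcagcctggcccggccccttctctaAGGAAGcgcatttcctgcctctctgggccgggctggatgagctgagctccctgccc

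No motif was found in all 4 of these promoters. Sparc held none of the 4 in this window, Bgn held 3 GC boxes and 3 Ets cores, with a pair of its GC boxes overlapping, Igfbp7 held 4 GC boxes and Eng 2 Ets cores. Over the 25 genes, the GC box was found in 13, the Ets core in 11, the TATA box in 5 and the AP-1 site in 1. Of 32851 promoters of the same length, 35.7% held the GC box, 35.4% the Ets core, 13.6% the TATA box and 7.81% the AP-1 site. A match is a run of letters and not evidence that a factor binds there.

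Among the stromal genes the largest difference was that of Sparc, a collagen-binding glycoprotein of bone and basement membrane that platelets also hold. In Pax5+/- mice Sparc ran from 6.14 through a median of 6.32 to 6.53 in the 7 preleukemic arrays, and from 9.60 through 10.10 to 11.13 in the 10 leukemic arrays. The WT preleukemic arrays read 6.59, 6.43 and 6.43 and the WT leukemic arrays 9.86, 10.45, 10.12 and 10.81. The lowest leukemic array of either genotype, at 9.60, thus stood far above the highest preleukemic one, at 6.59. The difference was 3.94 ± 0.20 (SE), a 15.3-fold rise with an adjusted p of 7.56e-13 (limma), in Pax5+/- mice and 3.83 ± 0.31, or 14.2-fold, in WT mice.

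Bgn, a small proteoglycan of bone matrix, followed. Its preleukemic Pax5+/- arrays ran from 5.48 through 5.68 to 5.93 and its leukemic ones from 7.78 through 9.49 to 10.10. In WT mice it read 5.38, 5.62 and 5.95 before leukemia and 9.23, 9.92, 9.06 and 9.30 in leukemia. Every leukemic array was above every preleukemic one, and Pax5+/- leukemic array 8 was the lowest of its group. The fold was 11.8 (3.56 ± 0.24) in Pax5+/- and 13.3 (3.73 ± 0.37) in WT mice, with adjusted p of 5.72e-11 and 1.43e-07 (limma). Dcn, the proteoglycan that coats collagen fibrils, ran from 5.47 through 5.60 to 5.74 and from 6.66 through 7.49 to 8.76 in Pax5+/- mice. Its WT arrays read 5.44, 5.67 and 5.51, then 8.10, 8.23, 6.42 and 6.36, so WT leukemic arrays 1 and 2 were high and 3 and 4 lower. The rise was 3.91-fold (1.97 ± 0.29) in Pax5+/- and 3.33-fold (1.74 ± 0.44) in WT mice, without overlap of the groups.

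Timp3, an inhibitor of matrix metalloproteinases, ran from 5.50 through 5.83 to 6.08 and from 6.68 through 8.76 to 9.79 in Pax5+/- mice. WT mice gave 5.63, 5.77 and 6.01, then 8.51, 8.97, 8.43 and 9.48. Array 8, at 6.68, lay closer to the preleukemic arrays than to the next Pax5+/- leukemic array at 8.32, and the groups still did not overlap. The fold was 7.44 in Pax5+/- and 8.25 in WT mice, with adjusted p of 2.08e-08 and 1.85e-05 (limma). Mgp, an inhibitor of calcification, rose 2.62-fold in Pax5+/- mice, from a mean of 6.45 to 7.84, and 4.54-fold in WT mice, from 6.27 to 8.45. Postn, made by bone-lining and fibroblastic cells, lay below the dim level in all 10 preleukemic arrays and rose at least 1.61-fold, to a mean of 6.00, and at least 2.17-fold, to 6.42. Such a minimum sets each dim array to its dim level.

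Of the other 3 matrix genes, Lum and Vcan did not pass the filter and Fn1 was not called in either genotype. Lum, a proteoglycan of fibrous connective tissue, was below the dim level on all 24 arrays, with group means from 4.33 to 4.47. Vcan, a large proteoglycan also made by monocytes, exceeded the dim level on WT preleukemic array 1, at 5.45, and on Pax5+/- leukemic array 6, at 6.43, with group means of 4.74 to 5.03. Fn1, the fibronectin gene, read 9.74, 6.10 and 6.23 in WT preleukemic and 7.70, 6.66, 6.81 and 6.39 in WT leukemic arrays. WT preleukemic array 1, the array with high granulocyte genes, set the WT difference of -0.46 ± 0.66 (adjusted p = 0.601, limma), which was 0.73 without it. The part of other blood cells in that value was not tested. In Pax5+/- mice Fn1 ran from 5.93 through 6.05 to 6.27 and from 6.04 through 6.69 to 8.63, with a difference of 0.92 ± 0.43 that was not called (adjusted p = 0.0654). Without WT preleukemic array 1 the same difference was called (adjusted p = 0.013), as it was without Pax5+/- leukemic array 7 (1.02, adjusted p = 0.0449).

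Of the 5 interstitial collagens, 3 rose in each genotype, where 27.8% of all genes tested were called higher in Pax5+/- and 18.7% in WT mice. Col1a1 and Col1a2 encode the chains of type I collagen, the main protein of bone. Col1a1 ran from 7.38 through 7.65 to 7.84 in preleukemic and from 7.66 through 8.90 to 9.76 in leukemic Pax5+/- arrays. Its WT arrays read 7.44, 7.74 and 7.77, then 8.61, 8.34, 8.63 and 9.58. Pax5+/- leukemic array 4, at 7.66, lay within the preleukemic range, while the WT groups did not overlap. Col1a1 rose 2.18-fold (1.13 ± 0.23, adjusted p = 0.000251, limma) in Pax5+/- and 2.2-fold in WT mice, and Col1a2 rose 2.07-fold, from a mean of 7.24 to 8.29, and 2.23-fold, from 7.17 to 8.32. Col6a1, a chain of the microfibrillar type VI collagen, rose 1.21-fold (6.78 to 7.06) and 1.3-fold (6.83 to 7.21). Col3a1, of the reticular fibre type III collagen, had group means of 6.64 to 6.75 and was not called in either genotype as deposited. Its difference was -0.09 in Pax5+/- mice, with an interval from -0.24 to 0.06, and -0.06 in WT mice, with an interval from -0.29 to 0.17. Col5a1, of the minor fibrillar type V collagen, differed by -0.02 and 0.03, with intervals from -0.11 to 0.07 and from -0.12 to 0.17 and group means of 6.93 to 7.03.

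**Figure D2:**
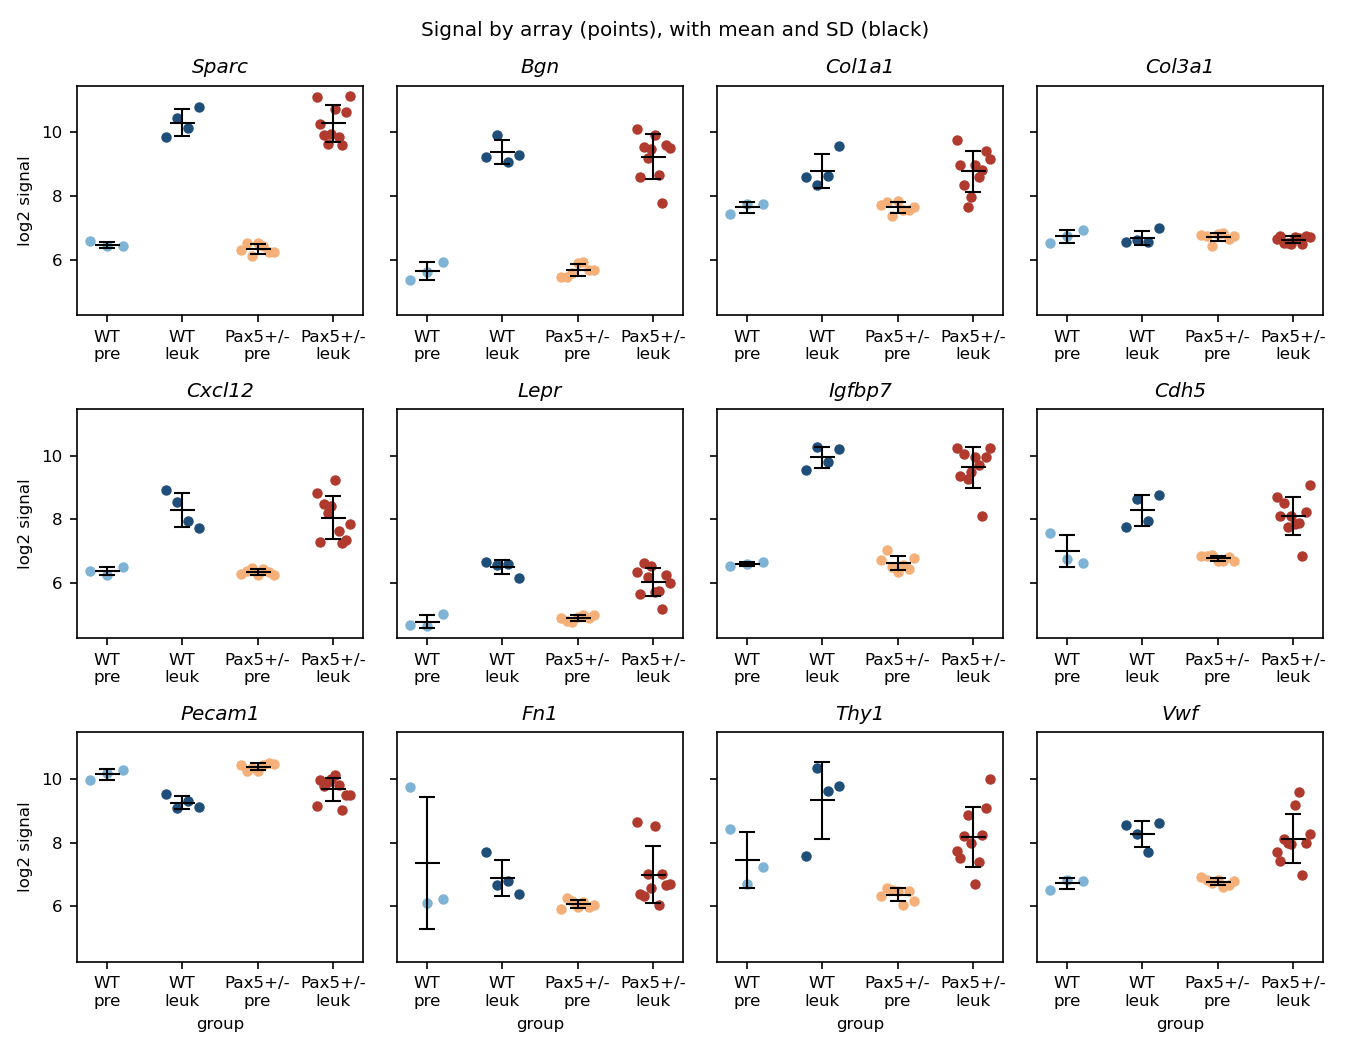
Log2 signal (vertical axis) of 12 genes by array in the 4 groups (horizontal axis; WT preleukemic n = 3, WT leukemic n = 4, Pax5+/- preleukemic n = 7, Pax5+/- leukemic n = 10), with black mean and SD. Sparc and Bgn separate by stage, Col3a1 is level at means of 6.64 to 6.75, Fn1 has 1 high WT preleukemic array at 9.74, and Pecam1 falls.

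All 8 genes of niche signals and receptors rose in both genotypes, although Kitl and Lepr passed the filter only through leukemic arrays. Of all genes tested, 27.8% were called higher in Pax5+/- and 18.7% in WT mice. Cxcl12, the chemokine that retains hematopoietic cells, ran from 6.25 through 6.37 to 6.47 and from 7.28 through 8.02 to 9.22 in Pax5+/- mice. WT mice gave 6.40, 6.27 and 6.51, then 8.92, 8.55, 7.97 and 7.73. The stages did not overlap, the lowest leukemic array reading 7.28 and the highest preleukemic one 6.51, and the fold was 3.27 (1.71 ± 0.24, adjusted p = 2.68e-06, limma) in Pax5+/- and 3.73 (1.90 ± 0.37) in WT mice. Lepr, the leptin receptor of perivascular reticular cells, ran from 4.77 through 4.92 to 5.02 and from 5.21 through 6.11 to 6.63. Its WT arrays read 4.71, 4.66 and 5.04, then 6.68, 6.57, 6.62 and 6.17. All 10 preleukemic arrays lay below the dim level, and the rise was at least 1.64-fold in Pax5+/- and at least 2.3-fold in WT mice. Kitl, the ligand of the receptor Kit, was likewise dim before leukemia and rose at least 1.45-fold, to a mean of 5.85, and at least 2.17-fold, to 6.42.

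Both insulin-like growth factor binding proteins of this class rose in each genotype. Igfbp5, abundant in bone-forming cells, ran from 5.77 through 5.87 to 6.38 and from 6.59 through 8.66 to 10.33 in Pax5+/- mice. WT mice gave 6.10, 5.91 and 6.15, then 9.17, 8.63, 8.03 and 8.18. The groups did not overlap, but leukemic Pax5+/- arrays spread more in Igfbp5 (SD 1.13) than in any other of the 38 genes. It rose 5.91-fold and 5.48-fold. Igfbp4 ran from 6.67 through 7.09 to 7.16 and from 8.87 through 9.56 to 9.80, while its WT arrays read 8.16, 7.17 and 7.49, then 9.45, 8.88, 8.85 and 8.74. Its WT preleukemic arrays all lay above the Pax5+/- preleukemic ones, array 1 by the most, and the rise was 5.18-fold (2.37 ± 0.16) in Pax5+/- and 2.59-fold (1.37 ± 0.25) in WT mice.

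The platelet-derived growth factor receptors mark mesenchymal cells and pericytes. Pdgfrb rose 3.28-fold, from a mean of 6.06 to 7.77, and 3.61-fold, from 5.97 to 7.83, without overlap. Pdgfra rose 1.48-fold (5.73 to 6.29) and 1.43-fold (5.73 to 6.24). Thy1, a surface glycoprotein of stromal cells and T cells, rose 3.49-fold in Pax5+/- mice, from a mean of 6.37 to 8.17, and 3.67-fold in WT mice. Its WT preleukemic arrays read 8.42, 6.70 and 7.23 and its WT leukemic arrays 7.59, 10.33, 9.60 and 9.78, so array 1 of each WT group overlapped with the other stage. Of the adipocyte genes, Lpl, the lipoprotein lipase that macrophages also make, rose at least 1.62-fold in Pax5+/- mice, to a mean of 6.02, and its WT means were 5.18 and 5.85. Adipoq, the adipocyte hormone adiponectin, differed by -0.09 (interval -0.38 to 0.19) and 0.02 (interval -0.43 to 0.46), with group means of 5.66 to 5.89.

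Among the endothelial genes the largest difference was in Igfbp7, a secreted binding protein of vessel walls. It ran from 6.35 through 6.56 to 7.04 and from 8.12 through 9.83 to 10.25 in Pax5+/- mice. The WT arrays read 6.55, 6.59 and 6.67, then 9.55, 10.26, 9.78 and 10.20. Array 8, at 8.12, was again lowest, with the next Pax5+/- leukemic array at 9.25, and no groups overlapped. The fold was 8.02 (3.00 ± 0.22, adjusted p = 2.01e-10, limma) in Pax5+/- and 10.2 (3.35 ± 0.34) in WT mice. Emcn, a sialomucin of sinusoidal and capillary endothelium, ran from 5.30 through 5.47 to 5.74 and from 6.24 through 7.61 to 8.60. Its WT arrays read 5.26, 5.43 and 5.33, then 7.02, 8.32, 7.64 and 8.50. It rose without overlap, at least 4.49-fold and at least 5.79-fold.

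Eng encodes endoglin, a TGF-beta co-receptor of endothelial cells that some blood progenitors and macrophages share. Eng ran from 6.84 through 7.34 to 7.58 and from 8.62 through 9.70 to 10.00 in Pax5+/- mice, while its WT arrays read 7.65, 7.75 and 8.13, then 9.74, 8.34, 9.21 and 9.07. All WT preleukemic arrays lay above all Pax5+/- preleukemic arrays, and WT leukemic array 2, at 8.34, lay just above WT preleukemic array 3. The rise was 4.68-fold (2.23 ± 0.19) in Pax5+/- and 2.37-fold (1.24 ± 0.29) in WT mice. Vwf, the von Willebrand factor of endothelium and megakaryocytes, ran from 6.61 through 6.80 to 6.92 and from 6.99 through 8.00 to 9.58, with WT values of 6.53, 6.84 and 6.79, then 8.54, 8.26, 7.72 and 8.62. It rose 2.54-fold and 2.95-fold, and Pax5+/- leukemic arrays 6 and 7, at 9.17 and 9.58, were the highest of all.

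Cdh5 encodes VE-cadherin, the junction protein that defines endothelium. It ran from 6.68 through 6.81 to 6.89 and from 6.87 through 8.11 to 9.06 in Pax5+/- mice. The WT arrays read 7.57, 6.77 and 6.65, then 7.78, 8.64, 7.96 and 8.77. Array 8 lay inside the preleukemic range in Pax5+/- mice, and WT preleukemic array 1 was high. Cdh5 rose 2.51-fold (1.33 ± 0.22, adjusted p = 2.7e-05, limma) and 2.45-fold (1.29 ± 0.35, adjusted p = 0.0052). Esam, another junction protein, ran from 5.51 through 5.78 to 6.01 and from 6.08 through 6.99 to 7.45, with WT values of 5.60, 5.68 and 5.50, then 6.95, 7.15, 6.67 and 7.21. It rose 2.27-fold and 2.63-fold without overlap.

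Kdr, the main VEGF receptor, ran from 5.05 through 5.32 to 5.53 and from 5.51 through 6.30 to 7.38 in Pax5+/- mice, with WT values of 5.59, 5.56 and 5.55, then 6.20, 6.43, 6.20 and 6.88. Array 8, at 5.51, overlapped with the preleukemic arrays, and the rise was at least 1.95-fold in Pax5+/- and 1.82-fold in WT mice. Tek, the angiopoietin receptor Tie2, was below the dim level in all preleukemic arrays and rose at least 1.45-fold, to a mean of 5.85, and at least 1.57-fold, to 5.96. Its relative Tie1 rose 1.35-fold (6.40 to 6.83) and 1.56-fold (6.32 to 6.96). Sparcl1, a secreted relative of Sparc, rose 1.94-fold, from 5.66 to 6.62, and 3-fold, from 5.66 to 7.24. Cav1, the caveola protein, rose at least 1.08-fold, to a mean of 5.43, and at least 1.12-fold, to 5.47. The basement membrane chains Col4a1 and Col4a2 differed by 0.42 ± 0.10 and 0.24 ± 0.09 in Pax5+/- mice, from means of 6.51 to 6.92 and 6.48 to 6.72. Their WT means went from 6.48 to 6.99 and from 6.51 to 6.75.

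Pecam1, an adhesion molecule of endothelium, platelets and many leukocytes including B-lineage cells, was the exception. In preleukemic arrays Pecam1 ran from 10.25 through 10.43 to 10.50 in Pax5+/- mice and read 9.95, 10.19 and 10.27 in WT mice. In leukemic arrays it ran from 9.03 through 9.78 to 10.12 in Pax5+/- mice and read 9.52, 9.07, 9.30 and 9.13 in WT mice. Every leukemic array was below every preleukemic array of its genotype. Pecam1 fell by 0.71 ± 0.13 (adjusted p = 6.55e-05, limma) in Pax5+/- mice and fell by 0.88 ± 0.20 (adjusted p = 0.00136) in WT mice.

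Averaged per array without a filter, the stromal and endothelial genes moved together with stage. The mean of the 24 stromal genes was 5.91 to 6.04 in Pax5+/- preleukemic, 5.98 to 6.21 in WT preleukemic, 6.66 to 7.91 in Pax5+/- leukemic and 7.29 to 7.61 in WT leukemic arrays. The mean of the 12 endothelial genes was 6.32 to 6.44, 6.38 to 6.44, 6.71 to 8.08 and 7.43 to 7.92 in the same order. For neither mean did the stages overlap. The stage difference of the stromal mean was 1.33 in both genotypes and that of the endothelial mean 1.18 in Pax5+/- and 1.24 in WT mice. The stromal difference exceeded the endothelial one by 0.15 in Pax5+/- and 0.09 in WT mice, which was not tested. Without the genes also known from blood cells, the stage differences were 1.27 and 1.38 for stromal and 1.18 and 1.34 for endothelial genes.

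**Figure D3:**
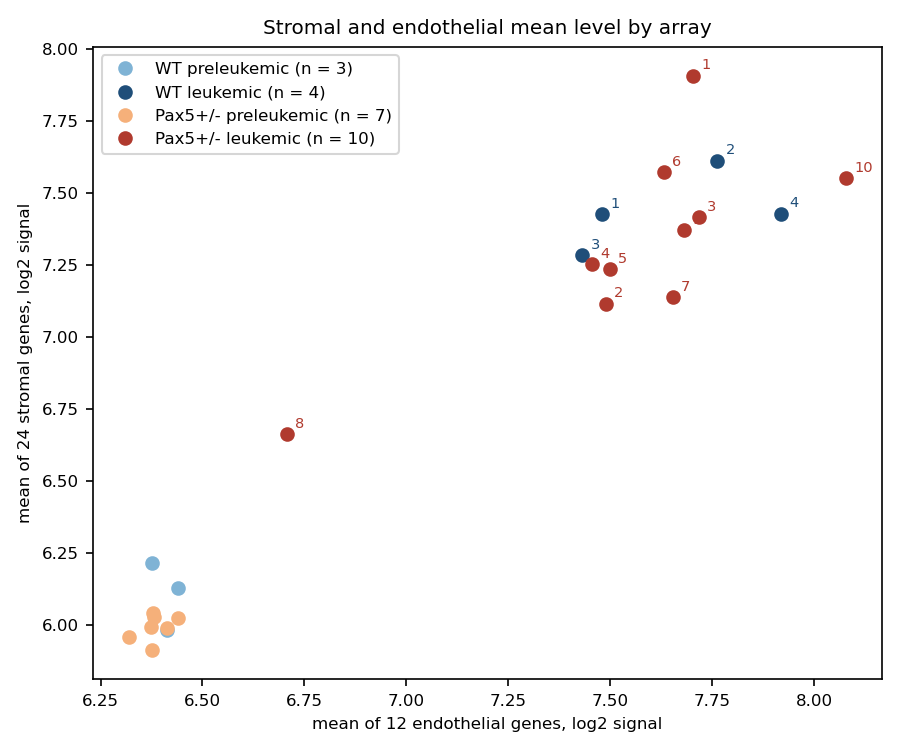
Mean log2 signal of 24 stromal genes (vertical axis) against that of 12 endothelial genes (horizontal axis), 1 point per array, with leukemic arrays numbered by replicate. Preleukemic arrays cluster at a stromal mean of 5.91 to 6.21, Pax5+/- leukemic array 8 lies between the clusters at 6.66 and 6.71, and array 1 has the highest stromal mean and array 10 the highest endothelial mean.

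In the median of these genes, the leukemic arrays varied more among themselves than the preleukemic ones. The median SD of the 38 genes was 0.13 in Pax5+/- preleukemic and 0.16 in WT preleukemic arrays, against 0.52 and 0.33 in leukemic arrays. Col3a1 and Col5a1 went the other way in Pax5+/- mice, with SDs of 0.14 and 0.10 in preleukemic and 0.10 and 0.05 in leukemic arrays. Genes that rose lay nearer the dim level before leukemia, where RMA compresses differences. The part of signal level in this spread was not tested. Among the 31 genes that rose in Pax5+/- mice, leukemic array 8 was the lowest of its group in 27, array 10 the highest in 11 and array 1 the highest in 9. Array 8 also had the lowest platelet mean (7.70) and the lowest monocyte and macrophage mean (7.12) of the Pax5+/- leukemic arrays. Its granulocyte mean of 8.18 lay inside the group range of 6.29 to 10.72. So did its B-lineage mean of 9.78, in a range of 9.09 to 10.40. Without array 8, 31 genes were still called higher in Pax5+/- mice, and the stage difference was 1.40 for the stromal and 1.27 for the endothelial mean.

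**Figure D4:**
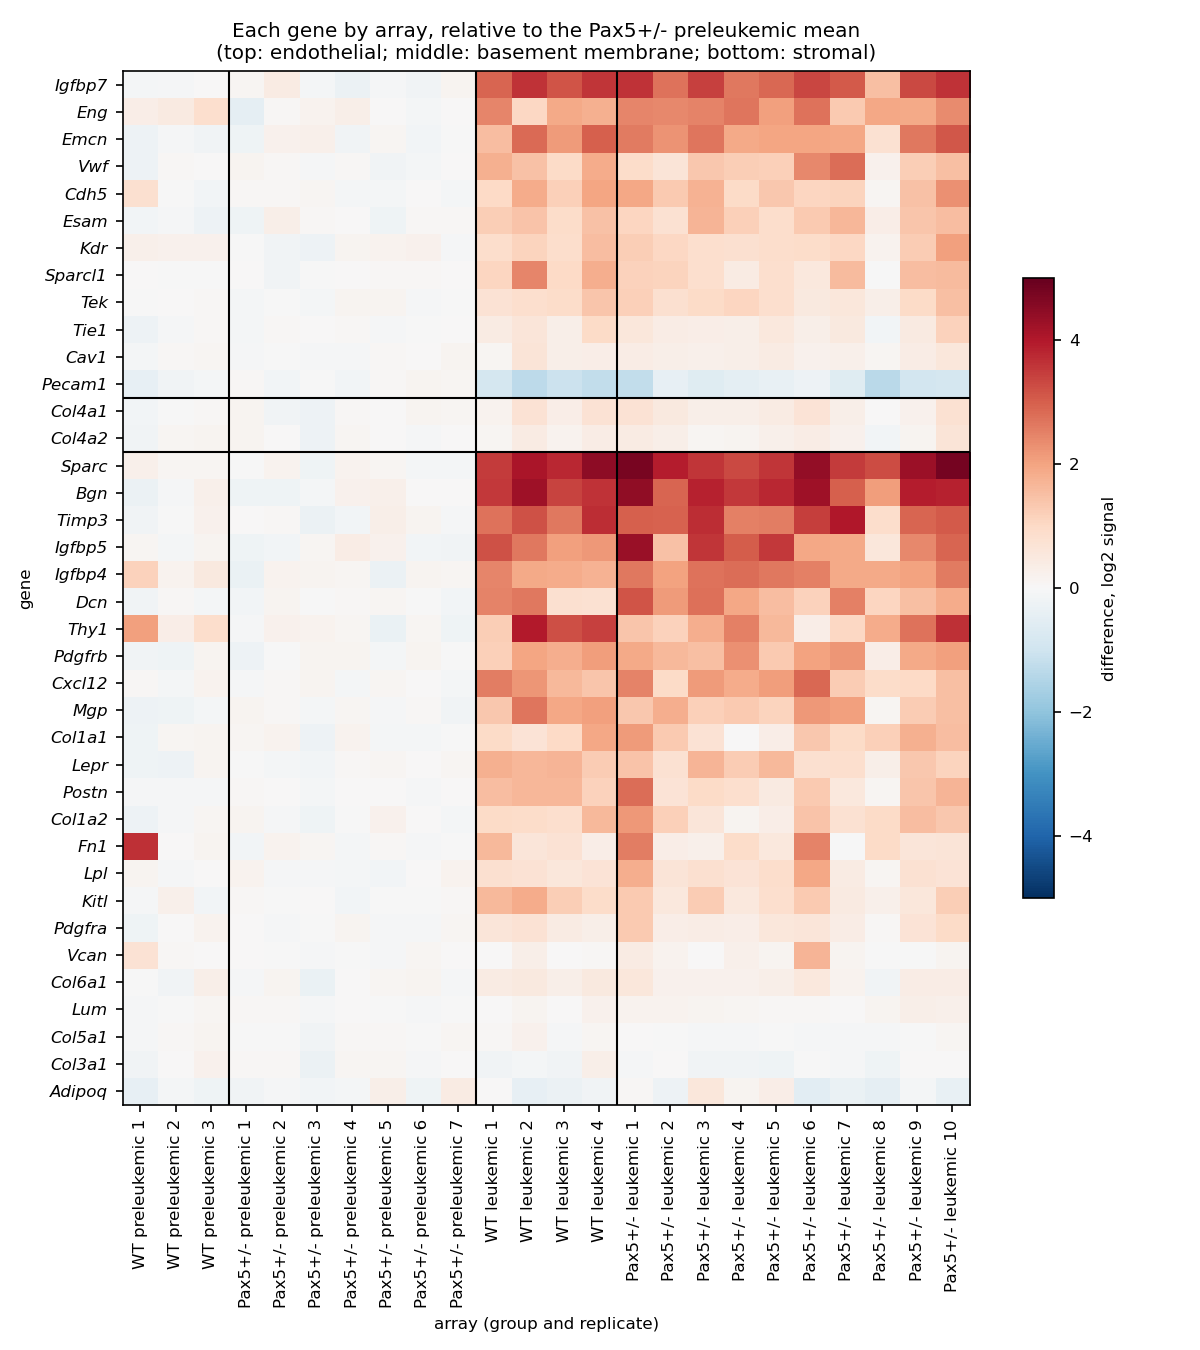
Log2 signal of each of the 38 genes (vertical axis) on each of the 24 arrays (horizontal axis), as the difference from the mean of the 7 Pax5+/- preleukemic arrays, red for higher and blue for lower. The column of Pax5+/- leukemic array 8 is paler than the other Pax5+/- leukemic columns, Pecam1 is blue in leukemic columns, and Fn1 is dark red in WT preleukemic array 1.

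Over the 10 Pax5+/- leukemic arrays, 10 gene pairs were correlated, with p from 100000 permutations adjusted over the pairs. Col1a1 and Col1a2 varied together (r = 0.98, rho = 0.99, permutation p = 2e-05 and 2e-05, adjusted p = 0.0001 and 0.0002), and r was 0.97 without the 2 arrays farthest from the median of Col1a1. So did Col4a1 and Col4a2 (r = 0.94, rho = 0.95, adjusted permutation p = 0.0001 and 0.000467; 0.95 without 2 arrays). Col1a1 and Sparc had r = 0.79 and rho = 0.77 (adjusted permutation p = 0.014 and 0.033; r = 0.78 without 2 arrays). Vwf followed the platelet chemokine gene Pf4 (r = 0.93, rho = 0.95, adjusted permutation p = 0.0014 and 0.000467; 0.89 without 2 arrays). Sparc and Pf4 did not pass the test (r = 0.29, rho = 0.27, adjusted permutation p = 0.419 and 0.446).

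Cdh5 and Kdr had r = 0.88 (adjusted permutation p = 0.00982) and rho = 0.71 (0.0529). Without arrays 8 and 10, r was 0.50, so this relation rests on those arrays. Col1a1 and Cdh5, the only pair of a type I collagen and an endothelial gene, were not shown to vary together (r = 0.35, rho = 0.49, adjusted permutation p = 0.369 and 0.223). Neither were Lepr and Cxcl12 (r = 0.45, rho = 0.55, adjusted p = 0.246 and 0.173), Pf4 and Pecam1 (r = 0.45, rho = 0.31, adjusted p = 0.246 and 0.446), nor the macrophage gene C1qb and Fn1 (r = 0.57, rho = 0.28, adjusted p = 0.154 and 0.446). All these are permutation tests over 10 arrays.

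**Figure D5:**
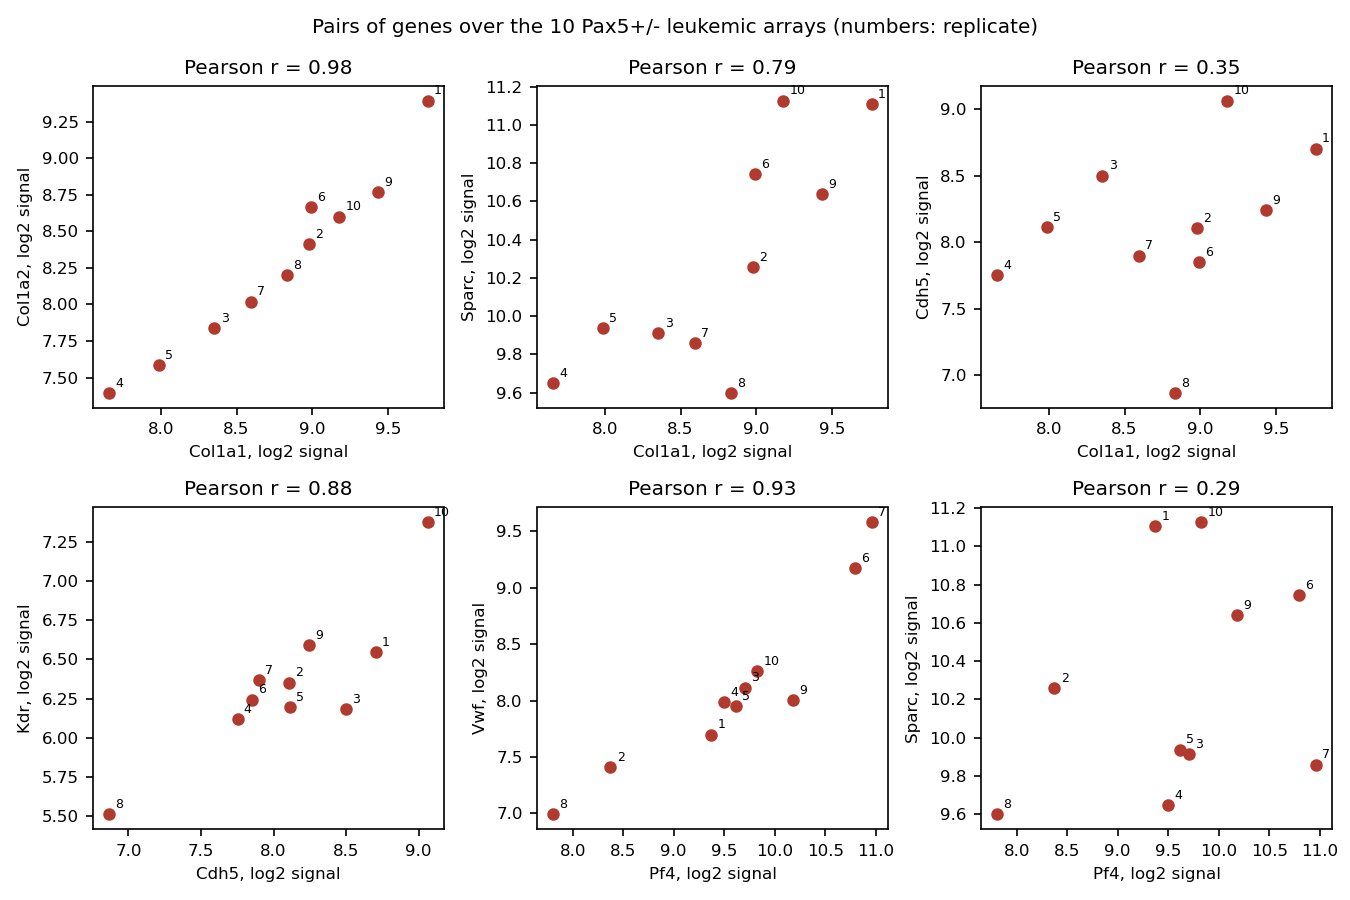
Log2 signal of pairs of genes over the 10 Pax5+/- leukemic arrays, numbered by replicate, with Pearson r above each panel. Col1a1 and Col1a2 lie near a line, Cdh5 and Kdr are spread by arrays 8 and 10, and Vwf rises with Pf4.

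Platelet and macrophage genes also rose with stage. Among all genes tested, the shares called were 27.8% higher and 35.1% lower in Pax5+/- and 18.7% and 20.4% in WT mice. All 8 megakaryocyte and platelet genes tested rose in each genotype. Their mean was 6.40 to 6.66 in all preleukemic arrays, 7.70 to 10.46 in Pax5+/- leukemic and 8.95 to 9.91 in WT leukemic arrays. Pf4 rose 11.3-fold and 14.1-fold. Of 12 monocyte and macrophage genes 10 rose in Pax5+/- and 7 in WT mice, and C1qb, a complement gene of macrophages, rose 9.12-fold and 9.67-fold. Their mean was 6.15 to 6.37 in Pax5+/- preleukemic and 7.12 to 9.40 in Pax5+/- leukemic arrays. It was 6.35 to 7.35 in WT preleukemic and 7.92 to 8.75 in WT leukemic arrays. Granulocyte genes rose in 11 of 14 in Pax5+/- mice. In WT mice limma called 0 of 14, with 2 at an unadjusted p under 0.05 and a median difference of 1.45. Their mean overlapped between WT preleukemic (6.64 to 10.42) and WT leukemic arrays (8.17 to 10.08). The overlap came from WT preleukemic array 1, at 10.42, and the other WT preleukemic arrays read 6.64 and 6.73. T-cell genes rose in 2 of 8 in Pax5+/- mice, a share near the 27.8% of all genes tested, and limma called 0 of 8 in WT mice, with 1 at an unadjusted p under 0.05 and a median difference of -0.05. Erythroid genes were called lower in 1 of 7 in Pax5+/- and higher in 2 of 7 in WT mice. The part of platelets, macrophages and other blood cells in the rise of Sparc, Vwf, Eng, Esam and the other genes they share was not tested.

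Wider lists, which do not hold the 38 genes, were used to set them in context. Of 32 further stromal and matrix genes tested, 22 rose and 3 fell in Pax5+/- and 12 rose and 2 fell in WT mice, with median differences of 0.32 and 0.28. The shares called over all genes tested were 27.8% higher and 35.1% lower in Pax5+/- and 18.7% and 20.4% in WT mice, and the median difference was -0.05 in each. Thbs1, the thrombospondin of matrix and platelets, rose 20.4-fold (4.35 ± 0.37) in Pax5+/- and 15-fold (3.91 ± 0.57) in WT mice. Ibsp, the bone sialoprotein of bone-forming cells, rose 6.41-fold and 5.45-fold. Alpl, the alkaline phosphatase of bone-forming cells, differed by 0.10 (adjusted p = 0.534, limma) in Pax5+/- mice and fell by 0.83 (adjusted p = 0.0033) in WT mice, and Sp7, a transcription factor of these cells, did not pass the filter and was not tested. Fabp4, a fatty acid carrier of adipocytes, endothelium and macrophages, rose at least 5.92-fold and 6.43-fold. Myl9, a contractile gene of smooth muscle that platelets also use, rose 5.9-fold and 6.53-fold. The smooth muscle genes Acta2 (0.52 and 0.07, adjusted p = 0.185 and 0.926, limma) and Tagln (0.29 and 0.15, adjusted p = 0.272 and 0.768) were not called in either genotype. Plin1, the lipid droplet gene of adipocytes, was slightly lower in both genotypes. It differed by -0.15 ± 0.06 (adjusted p = 0.0295, limma) in Pax5+/- and by -0.23 ± 0.09 (adjusted p = 0.0434) in WT mice. Whether these small differences depend on the scale of the arrays was not tested. Ogn and Omd, proteoglycans of fibrous tissue and bone, were below the dim level in all preleukemic arrays and were not tested.

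Of 24 further endothelial genes, 18 rose and Icam2 fell in Pax5+/- mice, where 27.8% of all genes tested were called higher and 35.1% lower. In WT mice 15 rose while Icam2 and Lamc1 fell, where the shares over all genes were 18.7% and 20.4%. The median differences of the 24 genes were 0.45 and 0.59. Vcam1, an adhesion ligand of sinusoids, reticular cells and macrophages that is also on the macrophage list, rose 8.18-fold and 10.9-fold. Egfl7, a secreted endothelial factor, rose 4.67-fold and 3.11-fold. Stab2, a scavenger receptor of sinusoidal endothelium, rose 2.93-fold and 3.74-fold. Ptprb, the phosphatase that acts on Tie2 and VE-cadherin, rose 2.59-fold and 2.8-fold.

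Among 24 tested genes whose products partner with these signals, 13 rose and 6 fell in Pax5+/- and 9 rose and 6 fell in WT mice. Over all genes tested, 27.8% were called higher and 35.1% lower in Pax5+/- and 18.7% and 20.4% in WT mice. Itga1, the alpha chain of a collagen-binding integrin, rose at least 3.79-fold and at least 2.66-fold. Kit, the receptor of the Kitl product, differed by 1.97 ± 0.54 (adjusted p = 0.00332, limma) in Pax5+/- mice and by 1.07 ± 0.83 (adjusted p = 0.315) in WT mice. Angpt1, the ligand of Tie2, differed by 1.73 ± 0.43 (adjusted p = 0.00166) and by 1.29 ± 0.67 (adjusted p = 0.132). The difference between the genotypes was 0.89 ± 0.99 for Kit (adjusted p = 0.89, limma) and 0.44 ± 0.80 for Angpt1 (adjusted p = 0.953). Cd44, a receptor for the matrix glycan hyaluronan, fell by 1.55 ± 0.18 in Pax5+/- and fell by 1.59 ± 0.28 in WT mice.

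The second question was whether these levels differed by Pax5 genotype. Y-linked genes were high in 0 of 4 WT and 5 of 10 Pax5+/- leukemic arrays. In preleukemic arrays they were high in 3 of 3 WT and 4 of 7 Pax5+/- arrays, so the genotypes were not balanced for sex. The part of sex in the comparisons below was not tested. None of the 36 tested genes passed limma for a difference between the stage differences of the genotypes, where 0.185% of all genes tested did. At an unadjusted p under 0.05 there were 3: Igfbp4, Eng and Lepr. Igfbp4 rose by 1.00 ± 0.30 more in Pax5+/- than in WT mice (interval 0.38 to 1.62, adjusted p = 0.267, limma) and Eng by 0.98 ± 0.34 (interval 0.27 to 1.69, adjusted p = 0.411). For Lepr the difference was -0.59 ± 0.28 (adjusted p = 0.582). The intervals for Sparc (-0.66 to 0.88), Cdh5 (-0.81 to 0.89) and Cxcl12 (-1.10 to 0.72) held 0, as did those of 33 of the 36 in all. Their median width was 1.48. The stage differences of the 38 genes, side by side in the genotypes, had a Pearson r of 0.93 and Spearman rho of 0.91 across genes, which are not independent replicates, and 34 had the same sign.

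Within leukemic arrays, no tested gene differed between Pax5+/- and WT mice by limma, where 0.16% of all genes tested did, and 6 had an unadjusted p under 0.05. The smallest adjusted p was 0.288, for Kitl, at -0.57 ± 0.18 (Pax5+/- mean 5.85, WT mean 6.42). Thy1 differed by -1.15 ± 0.47 (adjusted p = 0.516). Within preleukemic arrays none passed either, where 0.786% of all genes tested did, and 3 had an unadjusted p under 0.05. These were Igfbp4, at -0.61 ± 0.23 (adjusted p = 0.331), Eng, at -0.54 ± 0.26 (adjusted p = 0.54), and Fn1, at -1.28 ± 0.60 (adjusted p = 0.516), for which WT preleukemic array 1 was the highest array.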

How the data were processed

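Total RNA of 24 samples, each a separate biological replicate per the labels, was measured on 1-colour Affymetrix mouse gene arrays. The authors deposited log2 signals of 35556 probe sets, made with RMA and the package oligo per the submitters' processing notes, with versions not given in the sources used here. RMA subtracts background and forces all arrays to 1 distribution, which compresses differences near background and makes each level relative to the rest of the array. Probe sets with 1 symbol in the platform table (21789) named 19938 genes, and a gene with several probe sets was read from the brightest on average. Genes at or above the array's 30th percentile on at least 3 arrays (15647) were tested.

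Means of the 4 groups were fitted with limma 3.58.1 in R 4.3.3 (20 residual and 2.29 prior degrees of freedom), two-sided, with Benjamini-Hochberg adjustment over all genes tested. The fit was tested on simulated data. Precision is limited by the number of arrays, with no detection calls used here. Each of the 38 genes has its values, range or group means given. Values by array are given for up to 6 called genes of the stromal class and 6 of the endothelial and basement membrane class with the largest difference in Pax5+/- mice, and for Col1a1, Cdh5, Cxcl12, Lepr and Kdr. Values by array of Fn1, Thy1 and Pecam1 were added after they had been seen. Up to 4 called genes were named from each wider list. Plin1, Alpl, Sp7, Acta2, Tagln, Ogn, Omd, Icam2, Lamc1 and Cxcr4 were named after their values were seen. The genes, lists and tests were chosen with earlier results of these data known. Alternatives were the empirical Bayes setting, the groups in the fit, array weights, filters, scalings, probe set choice, a replicate block and leaving out each array.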

Additional observations from a re-analysis of the deposited data

Results flagged for a closer look

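Of 120 groups of 4 to 10 arrays, 12 (10%) held an array whose gap to its nearest neighbour exceeded the 95% limit of Dixon's test. For independent groups chance gives about 5%. These groups are genes and gene means read on the same arrays, so no excess over chance can be read from the shares. In Pax5+/- leukemic array 8 the values of Col6a1 (6.62), Mgp (6.56), Timp3 (6.68), Pdgfrb (6.40), Emcn (6.24) and Igfbp7 (8.12) and the mean of the endothelial genes (6.71) lay far below the rest of their group. The nearest other arrays read 6.95, 7.57, 8.32, 7.37, 7.38, 9.25 and 7.46. Vcan was far above its group in Pax5+/- leukemic array 6, at 6.43 against 5.14 in the next. Col1a2 was far above its group in WT leukemic array 4, at 8.86 against 8.20. In Pax5+/- preleukemic array 3, Col3a1 (6.44) and Col6a1 (6.45) lay below their group, and in array 2 Sparcl1 (5.50) did.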

How the results depend on the processing

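Counts of genes called higher ran from 26 to 32 in Pax5+/- and from 25 to 30 in WT mice over the alternatives that keep all arrays, and from 31 to 32 and from 24 to 30 when each array was left out in turn. No gene was called in the other 3 comparisons under any of these settings. The count called lower in Pax5+/- mice was 3 in place of 1 when arrays were centred on the tested genes, and also 3 after repeated quantile normalization, where Col3a1 and Col5a1 joined Pecam1. No called gene changed sign. Uncalled genes near 0 did: Col5a1 in Pax5+/- mice was 0.046 with arrays centred on all probe sets, Col3a1 in WT mice was 0.012 with that centring and ran from -0.165 to 0.044 leaving out single arrays, Col5a1 in WT mice was -0.098 centred on the tested genes and -0.098 after quantile normalization and ran from -0.024 to 0.0700, Fn1 in WT mice ran from -1.09 to 0.73, and Adipoq in WT mice was -0.11 centred on the tested genes and ran from -0.069 to 0.087. The gap between stromal and endothelial change ran from 0.10 to 0.19 in Pax5+/- and from 0.03 to 0.18 in WT mice leaving out single arrays. In WT mice a fit of only the groups compared lost the calls of Col6a1, Thy1 and Cav1 and array weights those of Col6a1 and Pdgfra. That fit, array weights and the replicate block each called Fn1 higher in Pax5+/- mice (adjusted p = 0.0192, 0.0291 and 0.0491, limma), and Lpl was called in WT mice in 4 such settings, with differences of 0.67 to 0.74. The replicate block called 32 genes higher and 1 lower in Pax5+/- and 30 higher and 1 lower in WT mice. Arrays with the same replicate number did not deviate together in 24 pairs (correlations -0.36 to 0.32, median -0.02, 4 over 0.1), so the numbers were not taken as pairing. Signal near the dim level limits Postn, Kitl, Lepr, Tek, Cav1, Lum and Vcan.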
